A study of Mus musculus with 16 samples.

Results

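Solute carriers are the large set of membrane proteins, numbered in families from Slc1 upwards, that move sugars, amino acids, ions, vitamins, metals and metabolites across cell membranes. The genes described here are the 146 that were well expressed in mouse colonic epithelial cells. They were chosen as all genes with a symbol that starts with Slc and a number, a probe set naming that gene alone, and a mean log2 intensity of 8 or more over all 16 arrays, with the probe set of the highest mean taken for each gene. Of 364 solute carrier genes with such a probe set among the 19938 genes tested, 146 passed and 218 did not. The levels over all arrays chose the members and are given only as a description. The mean levels of Slc29a1 (8.041), Slc7a6 (8.03) and Slc39a3 (8.029) lay just inside the threshold, and those of Slc19a2 (7.969), Slc12a9 (7.959) and Slc44a2 (7.954) just outside it. Of the 146 symbols, Slc9a3r1, a scaffold protein named after the exchanger it binds, and Slc7a6os, a gene named for its place on the strand opposite Slc7a6, are not carriers and were kept because the choice went by symbol.

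RNA came from isolated colonic epithelial cells of 70-day-old, gender-matched C57BL/6 mice. The mice drank 2% dextran sulfate sodium (DSS), a polymer that injures the colonic epithelium, for 8 days or were left untreated. Each treatment was given to 4 kinds of offspring: Pigr-/- offspring of Pigr-/- dams, which had neither source of secretory IgA (SIgA), Pigr+/- offspring of Pigr-/- dams, which had active SIgA only, Pigr-/- offspring of Pigr+/- dams, which had passive SIgA only, and Pigr+/- offspring of Pigr+/- dams, which had both. Pigr is the epithelial receptor that moves polymeric IgA into secretions, so passive SIgA reached the young in milk and active SIgA was transported by the offspring itself. Each of the 8 groups had 6 mice and 2 arrays, and an array carried the RNA of 3 mice in a pool. No group was wild type at Pigr, and the passive comparison also separates litters, since it follows the genotype of the dam. Values are RMA log2 intensities, on which a difference of 1 is a change by a factor of 2. Levels of different genes come from different probes and are not ranked against each other here.

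The colonic epithelium takes up water, salt and the short-chain fatty acids made by bacteria, and exchanges sodium for protons and chloride for bicarbonate at its luminal face. It also carries apical transporters better known from the small intestine, such as those for peptides, phosphate, glucose and bile acids. Inside the cell, other solute carriers load nucleotide sugars into the Golgi apparatus and the endoplasmic reticulum, move zinc and iron between compartments, and pass metabolites across the inner mitochondrial membrane.

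Markers of the labelled tissue were high on every array. The mean level of 10 epithelial markers, which include Epcam, Cdh1 and Vil1, lay between 12.39 and 12.58 on the DSS arrays and between 12.45 and 12.56 on the untreated arrays. Pigr itself read 11.34 to 11.70 on the arrays of Pigr-/- offspring and 12.18 to 12.46 on those of Pigr+/- offspring. Both untreated arrays of the group with both SIgA sources and replicate 1 of the untreated group with active SIgA only stood apart from the other arrays. Along the leading principal component (34.1% of the variance) they lay at 33.5, 35.2 and 32.2, against -27.4 to 5.5 for the others, and they also had the highest mean of 1288 genes for chemosensory receptors and hair keratin-associated proteins, at 5.25, 5.41 and 4.87 against 4.45 to 4.71. For this reason the calls are also given with the untreated group with both sources left out.

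Averaged over the 4 SIgA groups, DSS changed 40 of the 146 solute carriers at an adjusted p under 0.05 in limma's moderated test (8 DSS arrays against 8 untreated arrays), 13 of them upward and 27 downward. That is 27.4% of the members. Of all genes tested, 13.1% passed (6.4% higher and 6.73% lower), and of the 6786 genes with a mean of 8 or more, 20.4% passed (11.5% higher and 8.94% lower). Of the 218 solute carriers below the threshold, 10.6% passed (10 higher, 4.59%, and 13 lower, 5.96%). The median difference of the members was -0.02, against -0.004 for all genes and 0.034 for genes with a mean of 8 or more. Without the untreated group with both sources, 8 members were higher and 15 lower, all 23 of them among the 40, while the share of all genes that passed was 6.07%. With replicate 1 of the untreated group with active SIgA only left out as well, 6 were higher and 14 lower, and 5.55% of all genes passed. The direction of each of the 40 stayed the same without that group. When each array was left out in turn, 29 of the 40 passed every time and 11 did not at least once, namely Slc11a2, Slc13a1, Slc16a1, Slc1a5, Slc23a2, Slc35a4, Slc35g1, Slc4a2, Slc5a1, Slc5a3 and Slc9a3. The count of rises was highest without replicate 2 of the untreated group with active SIgA only. That group then kept only replicate 1, which stood apart from the other arrays.

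Most of these changes were small. Of the 40, 4 changed by a factor of 2 or more: the sugar phosphate carrier Slc37a2, the phosphate carrier Slc34a2 and the peptide carrier Slc15a1 fell, and the sodium-coupled sugar carrier Slc5a9 rose. In 12 members the 8 DSS arrays did not overlap the 8 untreated arrays, 4 with all DSS arrays higher and 8 with all DSS arrays lower; among all genes, 1.58% were higher and 1.3% lower in this way, and among genes with a mean of 8 or more 2.59% and 2.74%. The arrays of the other 28 overlapped. In bulk RNA, fewer cells of a type and less RNA per cell cannot be told apart. Markers of other cell types moved with DSS. Of 12 neutrophil markers 11 were higher (mean level 6.81 to 7.40 on the DSS arrays and 5.98 to 6.41 on the untreated arrays), as were 9 of 14 markers of monocytes and macrophages (6.48 to 6.81 after DSS and 5.96 to 6.28 untreated) and 3 of 10 fibroblast markers (7.17 to 7.41 after DSS and 6.73 to 7.38 untreated). Summed on the linear scale, the neutrophil list came to 5890 to 7880 on the DSS arrays and 3980 to 6010 on the untreated arrays. That sum mostly followed Ly6g, which averaged 12.43 after DSS and 12.03 untreated. The next highest neutrophil marker, Hdc, averaged 7.77 and 6.74. The monocyte and macrophage list came to 1530 to 2030 after DSS and 1060 to 1220 untreated, and the fibroblast list to 2250 to 2950 after DSS and 1450 to 2160 untreated. Of 10 epithelial markers, Krt18 (-0.20 ± 0.06) and Cldn3 (-0.21 ± 0.06) were lower and none was higher, and neither passed without the untreated group with both sources (adjusted p = 0.256 and 0.109). The sum over the epithelial list was 61900 to 69100 after DSS and 64100 to 68700 untreated. No T cell, smooth muscle or endothelial marker passed. On the list for B cells and plasma cells, 2 of 8 genes were lower, Igha (-0.61 ± 0.14) and Sdc1 (-0.33 ± 0.05). Without the untreated group with both sources Igha lost its call (adjusted p = 0.593) and Sdc1 kept it (adjusted p = 0.0163). Sdc1 averaged 10.62 untreated, against 4.56 to 6.49 for the rest of that list. Whether fewer B cells or plasma cells were present was not tested. The part of the listed cell types in the results for the carriers was not tested either.

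**Figure D1:**
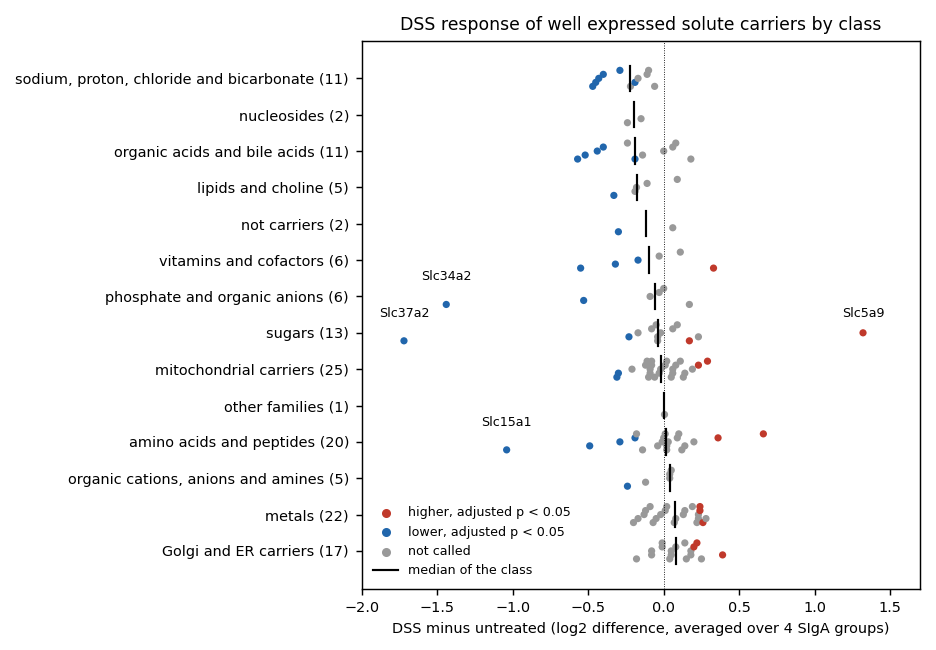
Difference of each of the 146 genes between DSS and untreated arrays (log2, averaged over the 4 SIgA groups, horizontal axis), with the genes grouped by the class of solute (vertical axis, number of genes in brackets). Red and blue points passed an adjusted p of 0.05, grey points did not, and the black bar is the median of a class. All 11 genes for sodium, proton, chloride and bicarbonate transport lie left of 0, while the medians for metals and for Golgi and ER carriers lie at 0.08.

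The promoters of the 3 carriers that fell most are shown first, because these genes had the largest decreases among the members. Each runs from 250 bases before to 50 bases after the start of the gene, 5′ to 3′ on the gene's strand, and is taken from RefSeq on the assembly GRCm38.p6. They lie at chr9:37255689-37255988 on the minus strand (Slc37a2), chr5:53049103-53049402 on the plus strand (Slc34a2) and chr14:121505205-121505504 on the minus strand (Slc15a1). Capitals mark matches to the cores of motifs for factors known to act on carrier genes: the amino acid response element (TGATGNA), the hypoxia response element (ACGTG) and the metal response element (TGCGCNC or TGCACNC), searched on both strands.
Slc37a2: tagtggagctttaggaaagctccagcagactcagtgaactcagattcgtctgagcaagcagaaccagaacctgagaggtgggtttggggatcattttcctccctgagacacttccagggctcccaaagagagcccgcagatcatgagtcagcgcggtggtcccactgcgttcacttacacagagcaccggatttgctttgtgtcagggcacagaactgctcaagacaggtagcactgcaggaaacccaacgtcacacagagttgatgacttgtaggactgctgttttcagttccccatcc
Slc34a2: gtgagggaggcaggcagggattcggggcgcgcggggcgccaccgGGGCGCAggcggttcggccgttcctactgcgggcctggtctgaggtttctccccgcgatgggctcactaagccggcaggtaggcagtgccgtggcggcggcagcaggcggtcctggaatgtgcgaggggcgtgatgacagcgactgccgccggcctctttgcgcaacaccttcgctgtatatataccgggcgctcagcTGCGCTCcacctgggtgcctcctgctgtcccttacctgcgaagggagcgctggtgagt
Slc15a1: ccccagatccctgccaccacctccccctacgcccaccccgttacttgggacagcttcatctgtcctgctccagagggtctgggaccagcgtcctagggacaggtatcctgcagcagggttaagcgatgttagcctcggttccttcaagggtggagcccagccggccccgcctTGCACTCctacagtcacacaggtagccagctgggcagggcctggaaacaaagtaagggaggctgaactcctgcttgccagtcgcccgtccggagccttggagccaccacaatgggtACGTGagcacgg
The stretch for Slc37a2 held none of the 3 cores. That for Slc34a2 held the metal core at -206 and at -8, and that for Slc15a1 held the metal core at -78 and the hypoxia core at 38, counted from the first base of the gene as 0. Only the letters ACGTG were searched for the hypoxia core. GCGTG, which the stretch for Slc34a2 holds, was neither marked nor counted. Slc5a9, which rose most, had no entry in the promoter table.

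Promoters were found for 113 of the 146 members (154 promoters, since a gene can have several) among 32851 promoters in all. The amino acid core was present in 7.14% of the members' promoters and in 12.2% of all promoters of this length. The hypoxia core was present in 27.9% of the members' promoters and in 19.6% of all, and the metal core in 39.6% of the members' promoters and in 25.7% of all. Of 9 carriers that rose and had a promoter, 2 held the amino acid core, 4 the hypoxia core and 3 the metal core. Of 20 that fell, 1, 7 and 13 held them. These are counts of genes with the core in any promoter. Counted so, the cores were present in 8.85%, 33.6% and 47.8% of the members. Among all genes the shares were 13.8%, 21.8% and 28.2%, in the same order. These matches describe letters in a window and carry no test.

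The class counts that follow got no test. They are to be read beside genes with a mean of 8 or more, of which 11.5% were higher and 8.94% lower. Sugar carriers held both the largest fall and the largest rise. Slc37a2, which exchanges sugar phosphates for phosphate across the membrane of the endoplasmic reticulum, had a lowest, median and highest level of 8.31, 9.34 and 9.74 on the DSS arrays, against 10.75, 11.01 and 11.12 on the untreated arrays. Every DSS array lay below every untreated array. The difference was -1.72 ± 0.07 (SE; a 3.29-fold fall; adjusted p = 1.49e-08, limma). Slc5a9, a sodium-coupled carrier of mannose and related sugars, read 9.09, 9.38 and 9.64 on the DSS arrays and 7.88, 8.02 and 8.34 on the untreated arrays. Here every DSS array was higher, and the difference was 1.32 ± 0.06 (2.5-fold, adjusted p = 4.4e-08). Its close relatives changed less: Slc5a3, the sodium-coupled inositol carrier, rose by 0.17 ± 0.05, and Slc5a1, the sodium-glucose carrier, fell by 0.23 ± 0.07, each with arrays that overlapped. Both of these calls were lost without the untreated group with both sources (adjusted p = 0.288 and 0.093). The other 9 of 13 sugar carriers, among them the glucose carriers Slc2a1 (-0.05 ± 0.06) and Slc2a6 (0.23 ± 0.08), did not pass, with differences between -0.17 and 0.23. The remaining members of the Slc37 family, Slc37a1, Slc37a3 and Slc37a4, differed by 0.09, 0.06 and -0.04.

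Of 6 carriers of phosphate and organic anions, 2 fell and none rose, both of them sodium-phosphate carriers. Slc34a2, the apical phosphate carrier of epithelia, had a lowest, median and highest level of 7.83, 8.24 and 9.10 after DSS and of 9.39, 9.67 and 10.31 untreated. The ranges did not overlap, and the difference was -1.44 ± 0.13 (2.72-fold lower, adjusted p = 1.25e-05). Slc20a1, a housekeeping phosphate carrier of another family, read 11.997, 12.42 and 12.69 after DSS and 12.71, 12.87 and 13.05 untreated. Its groups were separate by a narrow margin, with a difference of -0.53 ± 0.07 (adjusted p = 0.000226). Its paralogue Slc20a2 (-0.03) and the organic anion carriers Slc17a4, Slc17a5 and Slc17a9 (-0.09 to 0.17) did not pass.

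**Figure D2:**
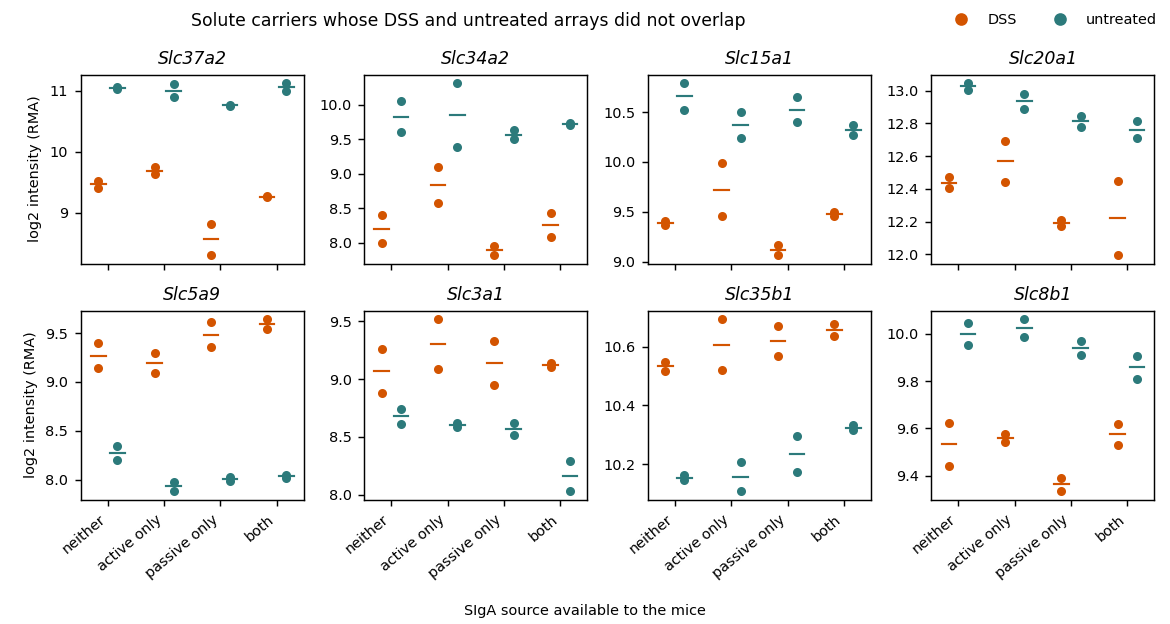
Level of 8 solute carriers (log2 intensity, vertical axis) on every array, by SIgA source (horizontal axis), for DSS arrays (orange, left of each pair) and untreated arrays (green, right). Points are arrays of 3 pooled mice and bars are means of 2 arrays; for Slc37a2 all DSS arrays lie at or below 9.74 and all untreated arrays at or above 10.75, and the 8 carriers shown have no overlap between the treatments.

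Among 20 carriers classed by family under amino acids and peptides, 2 rose and 4 fell. The falls include the serotonin carrier Slc6a4 and the creatine carrier Slc6a8, placed here by their family. Slc15a1, the proton-coupled carrier that takes up small peptides, read 9.07, 9.43 and 9.98 (lowest, median and highest) after DSS and 10.24, 10.45 and 10.79 untreated. The ranges were apart, and the difference was -1.04 ± 0.08 (2.06-fold lower, adjusted p = 3.43e-06). Slc3a1, the heavy chain that brings cystine and dibasic amino acid exchange to the apical membrane, moved the other way, with 8.88, 9.12 and 9.52 after DSS and 8.03, 8.60 and 8.74 untreated. All its DSS arrays were higher, by 0.66 ± 0.09 (adjusted p = 0.000226). Its known partner chain Slc7a9, below the threshold with a mean of 6.905, rose by 0.29 ± 0.07 (adjusted p = 0.0222). Slc7a7, a light chain for basolateral exchange of cationic amino acids, rose by 0.36 ± 0.07 (adjusted p = 0.0056) with overlapping arrays, while Slc3a2, the heavy chain with which it pairs, differed by -0.01. The serotonin carrier Slc6a4 fell by 0.49 ± 0.08, the creatine carrier Slc6a8 by 0.29 ± 0.06 and the glutamine carrier Slc1a5 by 0.19 ± 0.05. For Slc1a5 the adjusted p was 0.0361, and 0.283 without the untreated group with both sources. The 14 others lay between -0.18 and 0.20; they include the large neutral amino acid chain Slc7a5 (0.14) and the glutamate carrier Slc1a1 (0.20).

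Of 11 carriers of sodium, protons, chloride and bicarbonate, 6 fell and none rose. All 11 differences were below 0, with a median of -0.22, and all 11 stayed below 0 after centring the arrays on their medians, after quantile normalization and without the untreated group with both sources, where 3 passed. Slc26a3, the apical chloride-bicarbonate exchanger, had a lowest, median and highest level of 11.49, 11.90 and 12.31 after DSS and of 12.04, 12.38 and 12.65 untreated. The ranges overlapped and the difference was -0.47 ± 0.08 (adjusted p = 0.00165). Slc9a2, a sodium-proton exchanger, fell by 0.40 ± 0.06 (adjusted p = 0.000487), and Slc8b1, the sodium-calcium exchanger of mitochondria, by 0.45 ± 0.05 (adjusted p = 8.52e-05). For Slc8b1 the arrays were apart, at 9.34 to 9.62 after DSS and 9.81 to 10.06 untreated. The sulfate carrier Slc26a2 fell by 0.29 ± 0.07 and the basolateral anion exchanger Slc4a2 by 0.19 ± 0.06, both no longer called without that group (adjusted p = 0.0722 and 0.21). Slc12a2, Slc12a7 and Slc12a8, placed in this class by their family, did not pass (-0.22 to -0.10).

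Slc9a3, the apical sodium-proton exchanger of absorptive cells, fell by 0.43 ± 0.12 on average (adjusted p = 0.0266, and 0.0846 without the untreated group with both sources), but not with the same sign in each SIgA group. With neither source it read 9.92 and 9.73 after DSS and 10.92 and 10.93 untreated, a difference of -1.10 ± 0.23 (adjusted p = 0.0393, and 0.0641 without the untreated group with both sources). With active SIgA only the values were 9.63 and 10.56 after DSS and 10.51 and 10.67 untreated. With passive SIgA only they were 10.48 and 10.17 after DSS and 10.29 and 9.91 untreated, and with both sources 9.76 and 9.67 after DSS and 10.04 and 10.11 untreated. The interaction of DSS and passive SIgA for Slc9a3 was -0.73 ± 0.23 (adjusted p = 0.371) and the three-way term -1.19 ± 0.46 (adjusted p = 0.587), so the difference between the groups did not pass. Its scaffold Slc9a3r1 fell by 0.30 ± 0.06 on average (adjusted p = 0.00553).

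Of 11 carriers classed under organic acids and bile acids, with the sulfate carrier Slc13a1 placed here by its family, 5 fell and none rose (median -0.19). They were Slc16a9 (-0.57 ± 0.11) and Slc16a5 (-0.52 ± 0.08) of the monocarboxylate family, the apical bile acid carrier Slc10a2 (-0.44 ± 0.11), the sulfate carrier Slc13a1 (-0.40 ± 0.12) and the lactate and butyrate carrier Slc16a1 (-0.19 ± 0.05). Slc16a9 read 7.45 to 8.09 after DSS and 8.22 to 8.86 untreated, without overlap. Without the untreated group with both sources Slc16a9 and Slc16a5 passed, and Slc10a2, Slc13a1 and Slc16a1 did not (adjusted p = 0.0598, 0.113 and 0.212). The sodium-coupled butyrate carrier Slc5a8 (0.08) and the basolateral bile acid chains Slc51a (-0.24) and Slc51b (0.06) did not pass. Slc10a2 differed by -0.81 ± 0.21 with neither source and by 0.08 ± 0.21 with passive SIgA only, and neither value passed.

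Vitamin carriers gave 3 falls and 1 rise among 6, where genes with a mean of 8 or more gave 8.94% falls and 11.5% rises. Slc46a1, the proton-coupled folate carrier, had 7.90, 8.30 and 8.48 (lowest, median and highest) after DSS and 8.66, 8.78 and 9.02 untreated. The ranges were apart, with a difference of -0.55 ± 0.08 (adjusted p = 0.000444). The biotin and pantothenate carrier Slc5a6 fell by 0.32 ± 0.08 and the vitamin C carrier Slc23a2 by 0.17 ± 0.05, and both calls were lost without the untreated group with both sources (adjusted p = 0.173 and 0.46). Slc49a4, a carrier of the lysosomal membrane, rose by 0.33 ± 0.06 (adjusted p = 0.00401). Of the 5 carriers of fatty acids and choline, Slc27a1, a fatty acid transport protein, fell by 0.33 ± 0.06, and of 5 carriers of organic cations and anions, Slc22a23, which has no settled substrate, fell by 0.24 ± 0.06, a call that was lost without the untreated group with both sources (adjusted p = 0.0807). Neither nucleoside carrier passed (Slc29a1 -0.24 and Slc29a3 -0.15).

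Of 17 Slc35 members, which supply the Golgi apparatus and the endoplasmic reticulum mainly with nucleotide sugars, 3 rose and none fell (median 0.08). Among genes with a mean of 8 or more, 11.5% rose and 8.94% fell. Slc35b1, the exchanger that brings ATP into the endoplasmic reticulum, had 10.52, 10.60 and 10.69 after DSS and 10.11, 10.19 and 10.34 untreated. Its arrays did not overlap, and the rise was 0.39 ± 0.05 (adjusted p = 0.000242). Slc35g1 (0.22 ± 0.06) and Slc35a4 (0.20 ± 0.05), placed in this class by their family, also rose, with overlap. Without the untreated group with both sources Slc35a4 passed (adjusted p = 0.0382) and Slc35g1 did not (adjusted p = 0.108). The 14 others, Slc35a1, Slc35a2 and Slc35a3 among them, did not pass (-0.18 to 0.25). With quantile normalization 2 of the class were higher and 1 was lower.

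Among 22 metal carriers 3 rose and none fell, with a median of 0.08. Of genes with a mean of 8 or more, 11.5% rose and 8.94% fell. Slc30a7, which loads zinc into the Golgi apparatus, had 9.69 to 9.82 after DSS and 9.21 to 9.68 untreated, apart by a narrow margin, and rose by 0.26 ± 0.06 (adjusted p = 0.0152, and 0.0621 without the untreated group with both sources). Slc11a2, the main importer of ferrous iron, rose by 0.24 ± 0.06, and Slc39a11, a zinc carrier, by 0.24 ± 0.05. The iron exporter Slc40a1 (0.22), the zinc carrier Slc30a5 (0.28) and the zinc importer Slc39a4 (0.13) did not pass. After centring the arrays on their medians 1 metal carrier was higher and 1 lower, so the absence of falls in this class depends on the scaling.

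The 25 members of the Slc25 family, most of them carriers of the inner mitochondrial membrane, were split, with 2 higher, 2 lower and a median of -0.02. The shares among genes with a mean of 8 or more were 11.5% higher and 8.94% lower. Slc25a12, the aspartate-glutamate carrier, fell by 0.31 ± 0.07 and Slc25a25, which exchanges ATP for phosphate, by 0.30 ± 0.06. Slc25a38, needed for heme synthesis, rose by 0.23 ± 0.06. Slc25a37, which brings iron into mitochondria, rose by 0.29 ± 0.05 (adjusted p = 0.00327), but its rise rested on 1 group: the untreated arrays with both sources read 7.99 and 7.95, whereas no other array, DSS or untreated, was below 8.38. Without that group the difference was 0.16 ± 0.07 (adjusted p = 0.232). Of these 4, Slc25a12 still passed without it (adjusted p = 0.0466) and the others did not. The adenine nucleotide carrier Slc25a5 (0.05) and the phosphate carrier Slc25a3 (0.02) did not pass.

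Families were mostly of 1 direction where they had several calls. Members of the Slc6, Slc9, Slc16 and Slc26 families with a call were all lower and those of the Slc35 family all higher. The exceptions were Slc5, with Slc5a9 and Slc5a3 higher and Slc5a6 and Slc5a1 lower, and Slc25. This covers the members only: among genes below the mean of 8, Slc35e3 and Slc35e4 fell and Slc16a3 rose. Of 38 pumps, channels and partner proteins listed beside the carriers, 2 rose and 15 fell, with a median of -0.17. In either direction 13.1% of all genes passed, and 20.4% of genes with a mean of 8 or more. Without the untreated group with both sources 1 of the 38 was higher and 11 were lower. The calcium-activated chloride channel Ano1 (-1.20 ± 0.06), the anion channel Best2 (-1.23 ± 0.09), the water channel Aqp8 (-0.96 ± 0.10), the magnesium channel Trpm6 (-0.88 ± 0.11) and the sodium channel subunit Scnn1a (-0.76 ± 0.08) fell, and the water channel Aqp4 (0.53 ± 0.06) and the copper pump Atp7a (0.23 ± 0.07) rose; the call for Atp7a was lost without that group (adjusted p = 0.289). A list of 17 regulators of carrier genes and response genes gave 3 rises and 3 falls. Set beside it are the same shares, 13.1% of all genes and 20.4% of genes with a mean of 8 or more. Asns (0.59 ± 0.09), a target of the amino acid response, the transferrin receptor Tfrc (0.36 ± 0.08) and the metal-responsive factor Mtf1 (0.18 ± 0.05) rose. Other genes of the amino acid response, Atf4 (0.0), Ddit3 (-0.0), Trib3 (0.02) and Chac1 (0.35), did not pass. Neither did the metallothioneins Mt1 (-0.13) and Mt2 (0.17) or the hypoxia factor Hif1a (0.14). The mineralocorticoid receptor Nr3c2 (-0.36 ± 0.07), the kinase Sgk1 (-0.34 ± 0.08) and the hypoxia factor Epas1 (-0.30 ± 0.07) fell. Without the untreated group with both sources 1 gene of this list was higher and 2 were lower, with Tfrc (adjusted p = 0.115), Mtf1 (adjusted p = 0.149) and Sgk1 (adjusted p = 0.124) no longer called.

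Of the 40 changes, 36 had the same sign in each of the 4 SIgA groups; the others were Slc9a3, Slc10a2, Slc23a2 and Slc5a3. Within single groups (2 arrays against 2, with the spread shared over all 16 arrays) fewer passed. With neither source 7 members passed (1.12% of all genes), Slc5a9 upward and Slc37a2, Slc15a1, Slc34a2, Slc9a2, Slc9a3 and Slc9a3r1 downward. With active SIgA only it was Slc5a9 and Slc37a2 (2 members, and 0.998% of all genes). With passive SIgA only 8 passed (1.98% of all genes), Slc5a9 upward and Slc37a2, Slc15a1, Slc34a2, Slc8b1, Slc20a1, Slc46a1 and Slc6a4 downward. With both sources 11 passed (7.53% of the members and 10.1% of all genes). Slc5a9, Slc3a1 and Slc25a37 were upward and Slc37a2, Slc34a2, Slc15a1, Slc20a1, Slc25a25, Slc9a2, Slc23a2 and Slc46a1 downward. Both untreated arrays of that group were among those that stood apart from the other arrays. In that group the DSS effect and the separation of those arrays cannot be told apart.

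Slc37a2 and Slc5a9 passed in each of the 4 groups. The difference of Slc37a2 was -1.57 ± 0.15 with neither source, -1.31 ± 0.15 where only active SIgA was present, -2.20 ± 0.15 where only passive SIgA was, and -1.80 ± 0.15 with both. That of Slc5a9 was 1.0 ± 0.13, 1.26 ± 0.13, 1.47 ± 0.13 and 1.56 ± 0.13 in the same order. Slc15a1 fell by 1.27 ± 0.17 with neither source and by 0.85 ± 0.17 with both; with passive SIgA only its difference was -1.41 ± 0.17, and with active SIgA only -0.65 ± 0.17 (adjusted p = 0.0972). Leaving out 1 array of the group concerned changed these counts, to as few as 3 with neither source, 3 with passive SIgA only and 6 with both, and to 8 with active SIgA only when its untreated replicate 2 was left out. That last fit kept only untreated replicate 1 of the group, which stood apart from the other arrays. Whether the DSS effects differ between groups beyond the error is tested by the interactions, none of which passed for any member.

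**Figure D3:**
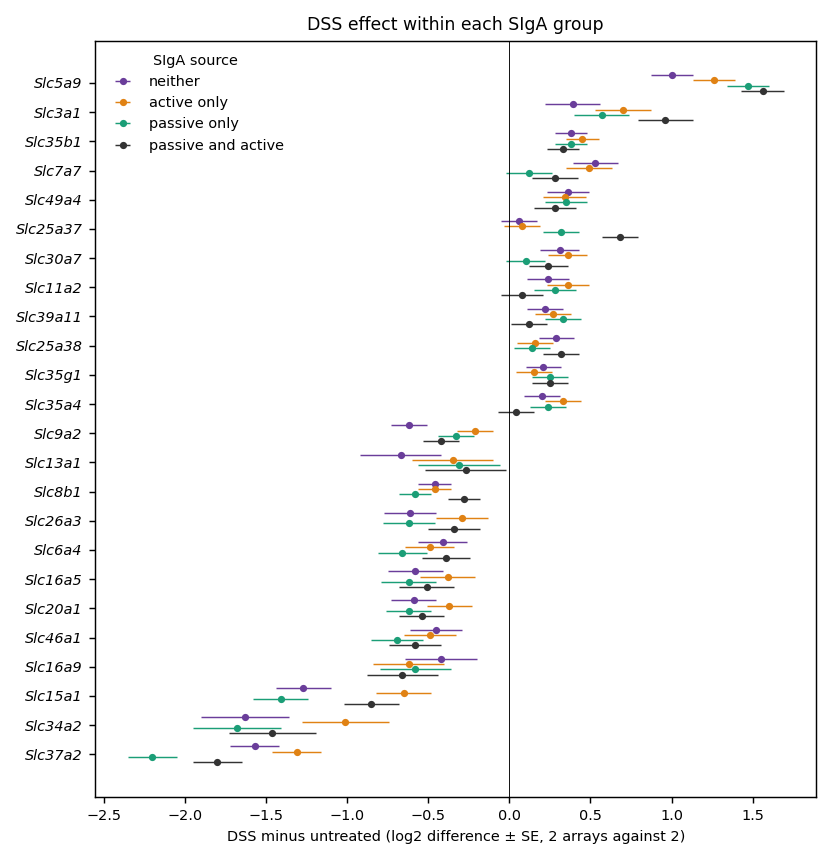
Difference between DSS and untreated arrays (log2 ± SE, 2 arrays against 2, horizontal axis) within each SIgA group for the 12 strongest rises and 12 strongest falls that had the same sign in each group (vertical axis). The points of a gene lie on the same side of 0 for all 4 SIgA groups, and for Slc25a37 the group with both sources lies at 0.68 against 0.06 to 0.32 for the others.

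For the interaction of DSS and passive SIgA (DSS effect without minus DSS effect with passive SIgA), 0 members passed in limma and 17 had an unadjusted p under 0.05, while 0.115% of all genes passed. The members with the smallest p were Slc25a37 (-0.43 ± 0.11, adjusted p = 0.196), Slc37a2 (0.55 ± 0.15, adjusted p = 0.232) and Slc25a11 (0.43 ± 0.13, adjusted p = 0.316). For the interaction with active SIgA 0 members passed, 4 had an unadjusted p under 0.05 and 0.843% of all genes passed. Slc15a1 (-0.59 ± 0.17, adjusted p = 0.139), Slc36a1 (-0.49 ± 0.15, adjusted p = 0.175) and Slc37a2 (-0.33 ± 0.15, adjusted p = 0.398) had the smallest p. For the three-way term 0 members passed, 7 had an unadjusted p under 0.05 and 0.0602% of all genes passed. The median standard error over all genes was 0.15 for the pairwise interactions and 0.301 for the three-way term, against 0.075 for the average DSS effect.

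The lack of passive SIgA was compared as without minus with. In untreated mice (4 arrays against 4) 7 members passed, against 2.58% of all genes. Lower without passive SIgA were Slc35f2 (-0.53 ± 0.10, adjusted p = 0.0173), the amino acid chain Slc7a7 (-0.51 ± 0.10), the peroxisomal carrier Slc25a17 (-0.47 ± 0.10), the lysosomal sialic acid carrier Slc17a5 (-0.57 ± 0.13) and the copper carrier Slc31a2 (-0.43 ± 0.10). Higher were Slc9a3 (0.67 ± 0.16, adjusted p = 0.0492) and Slc25a37 (0.33 ± 0.08). Slc35f2 read 7.91, 8.44, 8.28 and 8.35 without passive SIgA and 8.83, 8.86, 8.73 and 8.66 with it. Slc7a7 read 8.56, 8.91, 8.58 and 8.75 without and 9.30, 9.16, 9.16 and 9.23 with it. Slc9a3 read 10.92, 10.93, 10.51 and 10.67 without and 10.29, 9.91, 10.04 and 10.11 with it. In these and in Slc25a17, Slc17a5 and Slc31a2 the arrays did not overlap, and in Slc25a37 they did. For comparisons of 4 arrays against 4, here and below, the share of all genes without overlap was not counted. The members named were picked by p from the same arrays, so the lack of overlap is a description only.

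None of these 7 passed when the untreated group with both sources was left out, which leaves 2 arrays against 2 and 0 calls among all genes (adjusted p = 0.319 for Slc35f2 and 0.967 for Slc25a37). The size changed little or grew for Slc35f2 (-0.67 ± 0.15), Slc7a7 (-0.49 ± 0.15), Slc25a17 (-0.45 ± 0.14) and Slc9a3 (0.83 ± 0.24), and shrank to 0.12 ± 0.11 for Slc25a37. No member passed either without replicate 2 of that group or without either untreated array of the group with passive SIgA only, and 13 passed without replicate 2 of the untreated group with active SIgA only. That last fit kept only untreated replicate 1 of this group, which stood apart from the other arrays. After DSS 0 members passed in the passive comparison, 16 had an unadjusted p under 0.05, and 0 of all genes passed. Slc37a2 had the smallest p, with 9.52, 9.41, 9.74 and 9.63 without passive SIgA and 8.81, 8.31, 9.26 and 9.27 with it. Its arrays did not overlap, and the difference was 0.66 ± 0.10 (adjusted p = 0.0645). Slc36a1, a proton-coupled amino acid carrier, differed by 0.38 ± 0.11 (adjusted p = 0.704) and Slc5a9 by -0.31 ± 0.09 (adjusted p = 0.773).

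**Figure D4:**
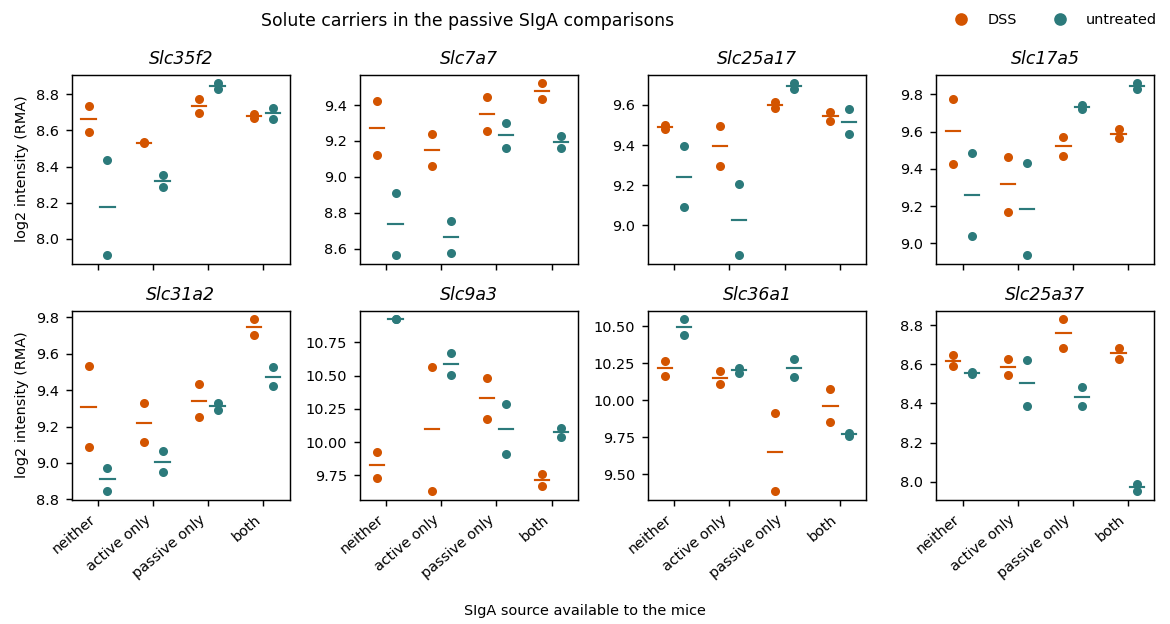
Level of 8 solute carriers (log2 intensity, vertical axis) on every array, by SIgA source (horizontal axis), for DSS arrays (orange, left of each pair) and untreated arrays (green, right). Points are arrays of 3 pooled mice and bars are means of 2 arrays; the untreated arrays of Slc35f2 lie at 8.44 or below without passive SIgA and at 8.66 or above with it, and the untreated arrays of Slc25a37 with both sources lie at 7.95 and 7.99.

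Over all arrays (8 against 8), 5 members passed for the lack of passive SIgA, against 0.963% of all genes. Slc37a2 (0.39 ± 0.07, adjusted p = 0.0301) and Slc36a1 (0.37 ± 0.07, adjusted p = 0.04) were higher without it. Slc31a2 (-0.36 ± 0.07, adjusted p = 0.0379), Slc7a7 (-0.36 ± 0.07, adjusted p = 0.0396) and Slc1a1 (-0.43 ± 0.09, adjusted p = 0.0489) were lower. The arrays of all 5 overlapped, and no member passed without any of 6 single arrays: untreated replicate 2 with both sources, either untreated array with passive SIgA only, untreated replicate 1 or DSS replicate 2 with neither source, and DSS replicate 2 with active SIgA only. None passed without the untreated group with both sources (0.015% of all genes), with differences of 0.54 ± 0.09 for Slc37a2, 0.34 ± 0.09 for Slc36a1, -0.32 ± 0.09 for Slc31a2, -0.30 ± 0.09 for Slc7a7 and -0.40 ± 0.11 for Slc1a1.

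The lack of active SIgA, which is the loss of Pigr in the offspring, called no member. Over all arrays 0 passed and 14 had an unadjusted p under 0.05, with 1.37% of all genes past the threshold. Slc37a2 (-0.30 ± 0.07, adjusted p = 0.0667), the manganese carrier Slc30a10 (0.21 ± 0.06, adjusted p = 0.0875) and Slc49a4 (-0.21 ± 0.06, adjusted p = 0.123) had the smallest p. In untreated mice 0 passed and 17 had an unadjusted p under 0.05, while 7.49% of all genes passed. The nearest were Slc36a1 (0.37 ± 0.11, adjusted p = 0.0505), Slc38a10 (0.24 ± 0.07, adjusted p = 0.0582) and Slc25a37 (0.26 ± 0.08, adjusted p = 0.0586). The count in this comparison depended on replicate 2 of the untreated group with active SIgA only. Without it, the untreated arrays with active SIgA were only those that stood apart from the other arrays. Active SIgA and the separation of those arrays could then not be told apart. After DSS 0 passed and 6 had an unadjusted p under 0.05, with 0.00502% of all genes past the threshold. Slc30a10 read 8.42, 8.37, 8.59 and 8.62 without active SIgA and 8.31, 8.29, 8.20 and 7.93 with it. These arrays did not overlap, but the difference of 0.32 ± 0.08 did not pass (unadjusted p = 0.00142, adjusted p = 1).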

How the data were processed

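RNA of colonic epithelial cells was hybridised to 16 Affymetrix whole-transcript arrays, 8 groups of 2, each array a pool of 3 mice, with RNA integrity numbers no lower than 8.5, per the labels. The labels name no batch or hybridisation date, and p-values rest on the variation among pools. The deposited values are log2 intensities made by the authors with RMA, per the submitters' processing notes; its version and settings are not given in the sources used here. The table held 35557 probe sets, with values between 1.857 and 14.938 and medians per array between 6.678 and 6.825. Of these, 21789 named 1 gene in the platform's annotation and were used, 1621 named several (3 of them with a solute carrier) and 12147 none. For the 999 genes with several probe sets, 9 members among them, the probe set with the highest mean stood for the gene, leaving 19938 genes. All 146 members were found in RefSeq. Classes were assigned by family number with exceptions, such as Slc5 members placed by their substrate; all Slc25 members form the class of mitochondrial carriers.

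A mean per group was fitted to every gene with limma 3.58.1 in R 4.3.3 (8 residual and 5.03 prior degrees of freedom), and two-sided moderated tests were adjusted by Benjamini-Hochberg over all 19938 genes, with calls at 0.05. DSS effects are DSS minus untreated, SIgA effects without minus with. The fit was run on simulated data with independent noise per gene and no arrays that stand apart. That run does not cover the arrays that did so here, and no result rests on it. The number of arrays limits the precision: the median standard error was 0.075 for the average DSS effect and 0.15 within 1 SIgA group. No pair of arrays correlated above 0.9966. Members named for a comparison were those with the strongest calls or the smallest p, plus those that each class turns on, some of them picked with their values in view. The members, classes, marker lists and partner lists were chosen with earlier results of these data known. The alternatives were a trend in the prior variance, array weights, a replicate block, centring, quantile normalization, leaving out the dimmest 30% of genes, the mean of a gene's probe sets, other thresholds on the mean level, only the arrays compared, and leaving out 1, 2 or 3 arrays. Same-numbered arrays do not share mice in the labels, and their deviations correlated between -0.301 and 0.666 over 28 pairs, so the numbers were not taken as pairs.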

Additional observations from a re-analysis of the deposited data

How the results depend on the processing

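The members called in the average DSS effect, 13 higher and 27 lower, became 21 higher with a trend in the prior variance and 8 higher after centring the arrays on their medians, which also moved the split of all genes called to 874 higher and 1637 lower, against 1276 and 1342. Without the untreated group with both SIgA sources they were 8 and 15, and without 3 arrays (that group and replicate 1 of the untreated group with active SIgA only) 6 and 14; leaving out single arrays gave 10 to 21 higher and 20 to 29 lower. The DSS effect with neither source (7 members) gave 11 with the trend and 13 with array weights (3 to 8 without single arrays). That with active SIgA only (2) gave 6 with the trend and 4 with quantile normalization or without the dimmest 30% of genes (2 to 8), and that with passive SIgA only (8) gave 13 with the trend and 5 without the untreated group or the 3 arrays (3 to 8). With both sources (11) the trend gave 18, array weights 7, centring 20, quantile normalization 21 and only the arrays compared 6 (6 to 15). The lack of passive SIgA over all arrays (5) gave 11 with the trend or quantile normalization, 2 with array weights and 0 without the untreated group or the 3 arrays (0 to 6). In untreated mice (7) it gave 15 with the trend or quantile normalization, 3 with array weights, 13 with centring, 1 with only the arrays compared and 0 without the untreated group or the 3 arrays (0 to 13). After DSS (0) it gave 1 with the trend, with centring and without the dimmest 30% (0 to 1). The lack of active SIgA over all arrays (0) gave 1 with the trend and with centring (0 to 3), and in untreated mice (0) 3 with the trend and 1 with centring, quantile normalization, the mean of probe sets or only the arrays compared (0 to 18); after DSS it stayed at 0. The interaction with passive SIgA (0) gave 1 with centring, that with active SIgA 0 to 1 without single arrays, and the three-way term 0 throughout. With the replicate number as a block, calls with active SIgA only came to 4, the passive comparison after DSS to 1, and the active comparison to 1 over all arrays and 2 in untreated mice, and no other count moved by over 1.5 times. The causes of these moves were not tested, and the fits without whole groups also have fewer arrays. Without the untreated group the DSS effect with both sources and the three-way term could not be fitted. A mean of 7.5 or more would have given 174 members and one of 8.5 or more 119. Among the named genes 2491 values kept their direction and their side of the threshold, 279 were no longer called, 50 became called and 22 moved, none of those called changing sign.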

Other observations

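Among the 218 solute carriers below the mean of 8, 10 rose and 13 fell with DSS. The largest rise was that of Slc7a11, the cystine-glutamate exchanger, which averaged 8.42 ± 0.24 after DSS and 6.79 ± 0.59 untreated (SD, n = 8 arrays each; difference 1.63 ± 0.15, adjusted p = 1.33e-05, limma). Slc15a3, a histidine and peptide carrier of lysosomes, averaged 7.16 ± 0.23 after DSS and 6.41 ± 0.21 untreated, a difference of 0.75 ± 0.09 (adjusted p = 0.000143). The thiamine carrier Slc19a2, just under the threshold, rose by 0.33 ± 0.08. The largest fall was that of Slc16a12 (-0.95 ± 0.12, adjusted p = 0.000218), of the monocarboxylate family. Its relatives Slc16a7 (-0.57 ± 0.08) and Slc16a13 (-0.29 ± 0.07) also fell, whereas Slc16a3 rose by 0.53 ± 0.06. The Slc16 family thus held a rise below the threshold and falls on both sides of it. Of the Slc35 genes below the threshold, Slc35e3 (-0.43 ± 0.11) and Slc35e4 (-0.20 ± 0.06) were lower with DSS, whereas the called members were all higher. In the class of sodium, protons, chloride and bicarbonate, Slc4a11 (0.39 ± 0.07) was higher and Slc24a3 (-0.59 ± 0.06) lower, both below the threshold. These genes were chosen for description after their values were seen.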
